A study of Arabidopsis thaliana with 8 samples.

Results

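The transcripts of fh1-1 seedlings were compared with those of their wild-type sister line, both grown on solid medium. The comparison was chosen by the array labels: the 2 arrays titled fh1-1 on solid medium were set against the 2 arrays titled wt on solid medium, 4 of the 8 arrays of the series. It is described over 16554 genes, each read from its brightest probe set among those paired with that gene alone. A probe set is the group of short array probes that together report 1 transcript. Of these genes, 14751 carried only their locus code (such as AT5G33370) in the annotation given, and 1803 carried a symbol.

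Formins start and lengthen actin filaments through their FH2 domain. FH1 is a formin with a membrane-spanning segment, which places its actin-binding part at the cell surface, and plants with impaired FH1 are known for altered actin bundling and microtubule dynamics. Whole seedlings hold cotyledons, hypocotyl, root and the young shoot, so their RNA mixes green and non-green tissue.

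All plants were of the Columbia background and were harvested whole at an age of 7 days, with about 120 seedlings in a pool. The fh1-1 group carried the fh1-1 mutation in FH1, and the wt group was the backcrossed wild-type sister of that line. Both stood on vertical plates of solid MS medium under a daily rhythm of 16 h light with 8 h darkness and received no other treatment. Each array came from its own pool, and the labels call the pools of a group biological replicates. The other 4 arrays were of wild-type seedlings moved for the last day to liquid medium in continuous light, with 20 uM of the formin inhibitor SMIFH2 or without it. In the model they served only for its estimate of the spread between arrays. The brightest probe set of a gene was also chosen by its mean over all 8 arrays. The sources used here did not give the kind of lesion in fh1-1 or the batches of labelling and scanning.

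Levels are printed as RMA values on the log2 scale, on which a difference of 1 is a 2-fold difference and differences are given as fh1-1 minus wt. The arrays had medians of 3.89 to 3.96 and 25th percentiles of 2.13 to 2.24 over all probe sets. Over the 16554 genes, the fh1-1 arrays correlated with each other at r = 0.9932 and the wt arrays at r = 0.9898, while fh1-1 arrays correlated with wt arrays at 0.9518 to 0.9595. The fh1-1 arrays correlated with the SMIFH2 arrays at 0.9899 to 0.9904, as closely as arrays of 1 group did. All of these share the level differences between genes. FH1 itself (AT3G25500, chromosome 3) had 0 probe sets paired with it alone, so the fh1-1 label was not checked against its transcript.

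Of the 16554 genes tested, 3734 (22.6%) differed between fh1-1 and wt at an adjusted p under 0.05 in limma, a linear model that borrows the spread estimate across genes. These genes are termed called. Of them 1800 (10.9% of all tested) were higher and 1934 (11.7%) were lower in fh1-1. Rises were larger than falls: the median called rise was 0.96 and the median called fall was -0.80, and of the 1417 genes (8.56%) that changed at least 2-fold, 842 (5.09%) were higher and 575 (3.47%) lower. Beyond 4-fold there were 194 rises and 65 falls, beyond 8-fold 55 rises and 13 falls, and beyond 32-fold 4 rises and 0 falls. The median over all genes was -0.05. In every called gene the fh1-1 arrays lay wholly above or wholly below the wt arrays, which was also so in 60.9% of all genes (26.9% above and 33.9% below).

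Calls depended on the level of the gene. With the genes ranked by mean level and cut into 5 equal classes, 1.27% were called in the dimmest class, 7.46% in the next and 40.6% in the brightest. With 2 arrays a group the median 95% interval of a difference reached 0.40 to either side. Of the 12820 genes not called, 11961 (93.3%) had an interval that lay within 1 of 0, and 12 had an estimate of 2-fold or more. The called share was 28.3% among genes with a symbol and 21.8% among genes with a locus code only, of which 1541 were higher and 1682 lower. The 5 nuclear chromosomes had called shares of 21.5% to 23.8%.

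**Figure D1:**
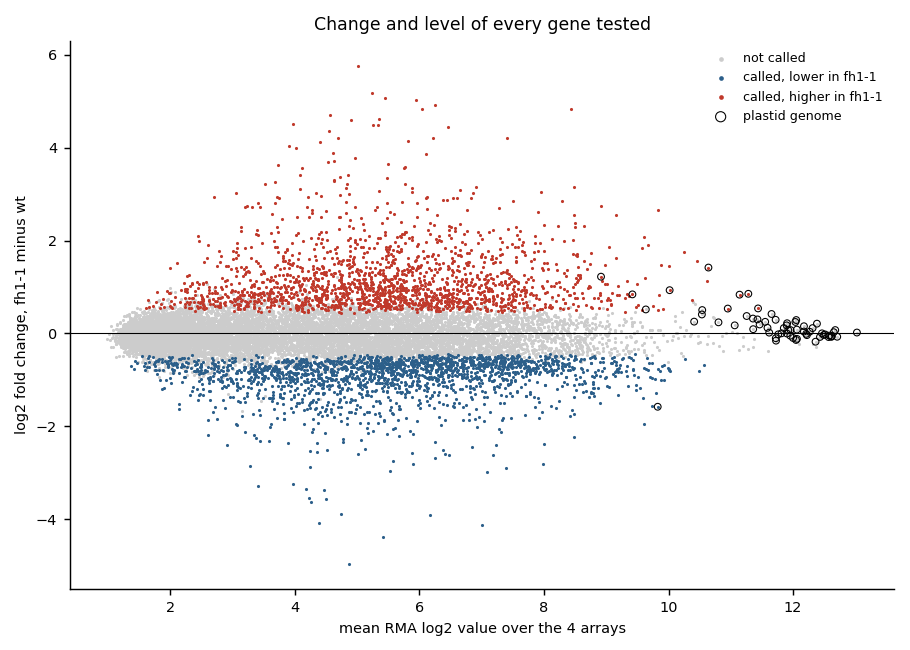
Difference between fh1-1 and wt (log2, y axis) against the mean level over the 4 arrays (log2, x axis) for each of the 16554 genes. Red points are the 1800 genes called higher and blue points the 1934 called lower in fh1-1, grey points were not called, and black rings mark the 63 plastid-encoded genes, which lie near 0 at the bright end except for a few such as ccsA above and psbN below.

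The largest rise was in THI2.2, which encodes a thionin, a small antimicrobial protein. It stood at 8.08 and 7.71 on the fh1-1 arrays and at 1.93 and 2.34 on the wt arrays, a difference of 5.77 ± 0.20 (SE, n = 2 arrays per group, adjusted p = 6.7e-07). The wt arrays thus lay near the 25th percentile of the array, and the fh1-1 arrays well above the median. The 3 rises after it were all in genes named by locus code. AT5G33370 stood at 8.00 and 7.64 in fh1-1 and 2.49 and 2.81 in wt, a rise of 5.17 ± 0.32. AT1G70820 stood at 8.20 and 7.76 in fh1-1 and 3.18 and 2.66 in wt, a rise of 5.06 ± 0.25. AT4G19530 reached 8.38 and 8.53 in fh1-1, against 3.37 and 3.49 in wt, a rise of 5.02 ± 0.20. In each of these the arrays of a group lay close together, far less apart than the groups.

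Of the 15 largest rises, 10 were in genes with a locus code only. AT5G48490 had 8.43 and 8.47 in fh1-1 and 3.50 and 3.74 in wt, and AT3G44970 had 7.26 and 6.57 in fh1-1 and 2.10 and 2.34 in wt. AT3G46490, AT1G06100, AT4G13575, AT5G24210 and AT1G22690 rose by 4.45 to 4.61. The genes with a symbol among the 15 were THI2.2, the glutathione transferase GSTU20, the light-harvesting protein gene LHB1B2, the glucosinolate side-chain dioxygenase AOP3 and the cell wall protein gene ECS1. LHB1B2 was the brightest of them, at 10.88 and 10.80 in fh1-1 against 5.77 and 6.26 in wt. In wild-type seedlings moved to liquid medium without SMIFH2, where light and medium differed, LHB1B2 was at 9.31 and 9.49. ECS1 was the least even of the 5, at 7.02 and 6.44 in fh1-1 and 1.82 and 2.93 in wt (4.36 ± 0.47). In the same liquid wild-type group ECS1 was at 8.13 and 6.64. GSTU20, at 8.77 and 8.65 in fh1-1, was at 5.15 and 5.86 there. The transcription factor gene PIF7, which acts with phytochrome, followed just outside the 15, at 6.85 and 6.73 in fh1-1 and 2.76 and 2.43 in wt.

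Among the 15 largest falls, 13 were in genes with a locus code only. The largest was in AT2G47780, at 2.25 and 2.54 in fh1-1 and 7.55 and 7.14 in wt, a difference of -4.95 ± 0.20 (adjusted p = 6.7e-07). AT1G19530 stood at 3.38 and 3.05 in fh1-1 and 7.56 and 7.64 in wt, and AT4G37220 at 4.92 and 4.99 in fh1-1 and 8.74 and 9.41 in wt. AT4G37220 thus kept a signal above the array median in fh1-1, whereas AT2G47780 lay near the 25th percentile there. FLP1, which had no RefSeq match, stood at 2.28 and 2.44 in fh1-1 and 6.36 and 6.50 in wt. MGL, a lyase of methionine breakdown, stood at 4.36 and 4.08 in fh1-1 and 8.17 and 8.08 in wt. AT4G11610, AT1G35625, AT1G61750 and AT1G60740 fell by 3.55 to 3.88. AT4G25580, AT5G05965, AT5G44440, AT2G44220, AT4G34881 and AT3G60070 fell by 2.95 to 3.38. Every one of the 30 largest changes was called under each of the 13 alternative settings tried.

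**Figure D2:**
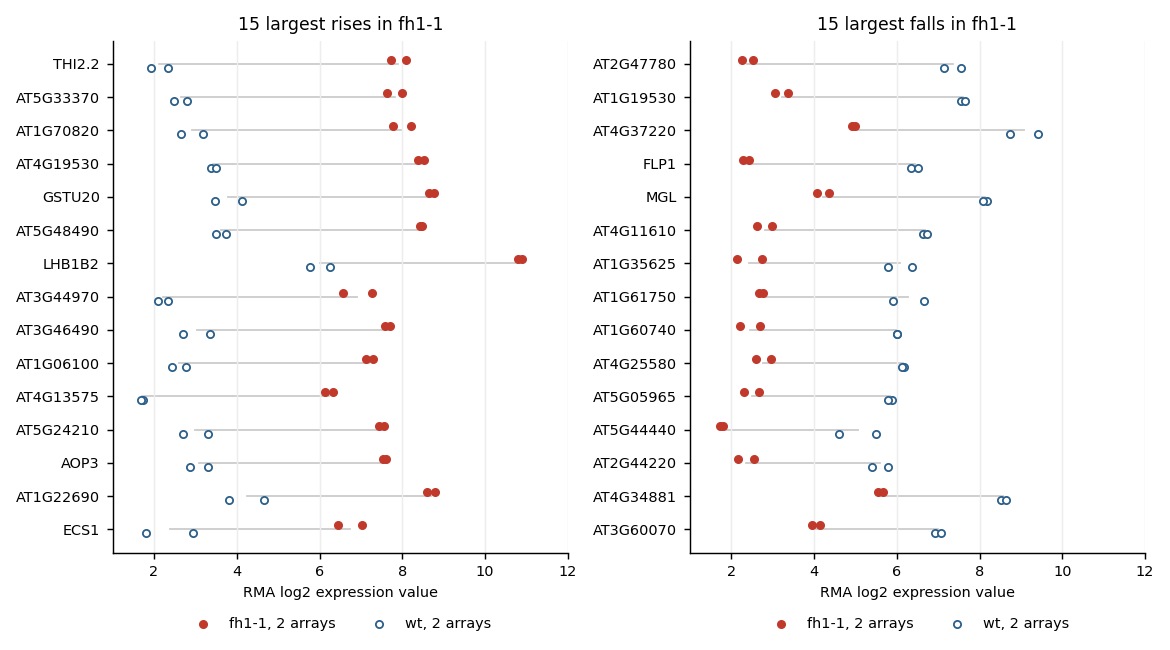
RMA log2 value (x axis) of the 15 genes with the largest rises (left) and the 15 with the largest falls (right), 1 gene a row; filled red points are the 2 fh1-1 arrays, open blue points the 2 wt arrays, and a grey line joins the group means. The arrays of the groups lie far apart in every row, and the spread within a group is widest for ECS1.

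Some genes passed between the dim and the bright range of the arrays. In 14 genes both wt arrays lay under the 25th percentile and both fh1-1 arrays above the median, and 13 of the 14 had a locus code only. AT4G13575 stood at 6.32 and 6.13 in fh1-1 and 1.74 and 1.68 in wt, and AT1G78450 at 6.06 and 5.77 in fh1-1 and 1.81 and 1.95 in wt. AT4G04750 and AT2G35830 followed, with rises of 3.98 and 3.63. The 1 gene with a symbol was the beta-glucosidase gene BGLU47, at 4.65 and 3.92 in fh1-1 and 2.09 and 1.88 in wt. The reverse pattern was found in 2 genes. AT5G44440 stood at 1.80 and 1.73 in fh1-1 and 5.51 and 4.60 in wt, and AT3G18530 at 1.91 and 1.81 in fh1-1 and 5.08 and 4.34 in wt. The difference of AT3G18530 was -2.85 ± 0.28. A further 3549 genes lay under the 25th percentile on all 4 arrays, and 26 of them were called. A dim value gives only an upper bound on the level, so the folds of these genes may understate the difference. The genes of this paragraph outside the 15 largest changes were chosen after their values were seen.

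At the bright end, the rises of at least 2-fold were led by genes of the chloroplast. RCA, which encodes Rubisco activase, stood at 11.16 and 11.09 in fh1-1 and 9.44 and 9.30 in wt. TROL, a thylakoid protein that anchors ferredoxin reductase, stood at 11.24 and 11.22 in fh1-1 and 9.82 and 9.53 in wt. The plastid gene ccsA, needed for cytochrome c assembly, stood at 11.39 and 11.31 in fh1-1 and 9.97 and 9.90 in wt. CCL and AT3G47650 completed the 5, with rises of 1.45 ± 0.15 and 1.12 ± 0.15. The brightest falls of at least 2-fold were those of the plastid gene psbN, the locus-coded AT4G27130 and AT3G14100, and DI19 and RD2, both named for their response to drought or desiccation. AT4G27130 stood at 8.90 and 8.98 in fh1-1 and 10.60 and 10.42 in wt, and DI19 at 9.19 and 9.14 in fh1-1 and 10.36 and 10.52 in wt. RD2 fell by 1.01 and AT3G14100 by 1.00.

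Photosynthesis proteins are made partly from nuclear and partly from plastid genes, and the array values of these genes did not move alike. Over all genes 10.9% were higher and 11.7% lower in fh1-1. Of 15 measured nuclear genes in the lists of the photosystems, antenna, thylakoid carriers and Calvin cycle, 14 were higher and 0 lower. The median of the 15 was 1.75, against -0.05 over all genes. The exception was the antenna gene LHCB4.3. Of 39 plastid-encoded genes of the photosystems, the cytochrome complex, ATP synthase, the NDH complex and the large Rubisco subunit, 2 were higher and 1 lower (7.69%), with a median of 0.00. Beside them, 17 plastid genes of ribosomal proteins and RNA polymerase had 5 higher and 0 lower and a median of 0.30. The nuclear and plastid sets differ in level too. Mean levels were 2.80 to 10.3 for the nuclear photosynthesis genes and 9.42 or more for the plastid ones. The plastid photosynthesis genes reached the top of the level range over all genes. Their largest changes, in psbN (-1.58) and psbT (0.84), were in dimmer members, while ndhF, called higher by 0.54, was brighter than these. Whether differences are read in full at such high levels was not tested. The nuclear count ranged from 11 to 14 over the 13 alternatives. The median of the plastid photosynthesis genes changed sign with quantile normalization (-0.02), cyclic loess (-0.11), without wt array 1 (-0.02) and without fh1-1 array 1 (-0.01). The difference between the sets was not tested.

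In the nuclear set, PSBW, a small subunit of photosystem II, stood at 11.16 and 11.16 in fh1-1 and 8.63 and 8.36 in wt. PSAN, on the lumen side of photosystem I, stood at 10.19 and 9.95 in fh1-1 and 6.91 and 6.91 in wt. SBPASE, the Calvin cycle sedoheptulose-bisphosphatase, stood at 10.45 and 10.42 in fh1-1 and 7.97 and 7.78 in wt. As in every called gene, and in 60.9% of all genes, the arrays of the groups did not overlap. ATPC1, the gamma subunit of the chloroplast ATP synthase, rose by 1.79 ± 0.18. HPR, the hydroxypyruvate reductase of photorespiration and the 1 measured gene of that list, stood at 9.66 and 9.78 in fh1-1 and 8.15 and 8.36 in wt. PGRL1B, a protein of cyclic electron flow, rose least among the called, by 0.71 ± 0.22 (adjusted p = 0.047). Its call ended in 8 of the 13 alternatives, among them without wt array 1, wt array 2 or fh1-1 array 1, at adjusted p values of up to 0.345. In pooled whole seedlings, a different share of a cell type and a different amount of RNA per cell cannot be told apart, here and below.

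Of the 63 plastid-encoded genes in all, 8 were higher and 1 lower in fh1-1 (14.3%), with a median of 0.08. The called share was 22.6% over all genes (10.9% higher and 11.7% lower) and 40.6% in the brightest of the 5 level classes. The 1 fall was in psbN, which is needed for photosystem II assembly, at 8.96 and 9.11 in fh1-1 and 10.47 and 10.75 in wt (-1.58 ± 0.27, adjusted p = 0.0022). Its neighbour psbT, a small photosystem II subunit, rose by 0.84. The strand that the probe sets read was not stated, and psbN lies on the strand opposite its neighbours. The small-subunit ribosomal protein gene rps16 stood at 9.53 and 9.53 in fh1-1 and 8.77 and 7.84 in wt, so its wt arrays were nearly 1 apart. Further rises were those of rps18 (0.93), rps19 (0.85), rpl36 (0.84), ndhF (0.54) and rps2 (0.54). The very bright rbcL, psbA and psaB had differences of -0.05, -0.07 and 0.03 and were not called. Only ccsA, rps16 and psbN were called under all 13 alternatives. The number higher was 3 without wt array 2, 2 without fh1-1 array 1 and 3 without fh1-1 array 2, and 17 with an intensity-trended prior. The median was 0.004 with quantile normalization and -0.03 with cyclic loess.

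Most measured genes of chlorophyll synthesis rose. Of 25 genes matched to the list of tetrapyrrole and chlorophyll synthesis, 6 were measured. Of these 5 were higher and 0 lower in fh1-1, where 10.9% of all genes were higher and 11.7% lower. Their median was 1.02, against -0.05 over all genes. HEME1, a uroporphyrinogen decarboxylase, stood at 8.75 and 8.69 in fh1-1 and 6.97 and 6.98 in wt (1.75 ± 0.15, adjusted p = 3.5e-05). HEME2, which encodes the same activity, stood at 7.54 and 7.21 in fh1-1 and 6.16 and 6.02 in wt. CHLM, a methyltransferase of the magnesium branch, stood at 9.27 and 8.80 in fh1-1 and 8.03 and 7.89 in wt. In all 3 the groups lay apart by more than their arrays did. GSA1, an aminotransferase of the first steps, rose by 0.96 ± 0.18, and PORB, a protochlorophyllide reductase, by 0.76 ± 0.18. PORB missed the threshold without wt array 2, fh1-1 array 1 or fh1-1 array 2, at adjusted p values of up to 0.075. HEMA2, a glutamyl-tRNA reductase gene, had a difference of 0.15 and was not called. Among the locus-coded genes, AT1G74470, named geranylgeranyl reductase in RefSeq and needed for the chlorophyll side chain, was also higher (adjusted p = 0.0025) and was chosen after its value was seen.

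Of 5 measured starch genes, 3 were higher and 0 lower in fh1-1, where 10.9% of all genes were higher, and DPE1 and SBE2.2 were called under all 13 alternatives. DPE1, the chloroplast enzyme that handles maltotriose from starch breakdown, stood at 7.34 and 7.30 in fh1-1 and 5.44 and 5.16 in wt (2.02 ± 0.15). SBE2.2, a starch branching enzyme, stood at 8.66 and 8.68 in fh1-1 and 7.23 and 7.39 in wt. AT4G24450, one of a pair of genes that carry the symbol PWD of a glucan kinase of starch breakdown, rose by 0.73 ± 0.18, a call that ended without wt array 1, fh1-1 array 1 or fh1-1 array 2 (adjusted p of up to 0.078). The other PWD gene, AT5G26570, lay outside the list and was chosen after its values were seen, at 7.13 and 7.08 in fh1-1 and 6.49 and 6.32 in wt (adjusted p = 0.0085). The ADP-glucose pyrophosphorylase subunit genes APL3 and APL4 were not called.

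Of 7 measured genes of amino acid breakdown 6 were lower and 0 higher in fh1-1, with a median of -0.69, and the number lower ranged from 3 to 7 over the 13 alternatives. Over all genes 11.7% were lower. Beside MGL, AT4G33150, named LKR/SDH in RefSeq for the enzyme that starts lysine breakdown, stood at 6.12 and 5.76 in fh1-1 and 8.77 and 8.91 in wt (-2.90 ± 0.16). ALDH7B4, an aldehyde dehydrogenase of the same route, stood at 7.42 and 7.30 in fh1-1 and 9.54 and 9.64 in wt (-2.23 ± 0.15). These 3 were called under all 13 alternatives. MCCB, a subunit of the leucine-breakdown carboxylase, fell by 0.69, ALDH6B2 of valine breakdown by 0.56 and D2HGDH, a hydroxyglutarate dehydrogenase, by 0.50. MCCB missed the threshold without wt array 2 or fh1-1 array 2 (adjusted p of up to 0.075), ALDH6B2 without these or fh1-1 array 1 (up to 0.15), and D2HGDH in 9 alternatives including every single array left out (up to 0.26). ETFQO, which passes electrons from these reactions to the respiratory chain, had a difference of -0.46 and was not called. Of the related sets, ICL, the isocitrate lyase that uses fatty-acid carbon, was the 1 of 3 glyoxylate and beta-oxidation genes called, at 6.43 and 6.29 in fh1-1 and 7.57 and 7.89 in wt. Its call ended without wt array 2, fh1-1 array 1 or fh1-1 array 2 (adjusted p of up to 0.083).

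**Figure D3:**
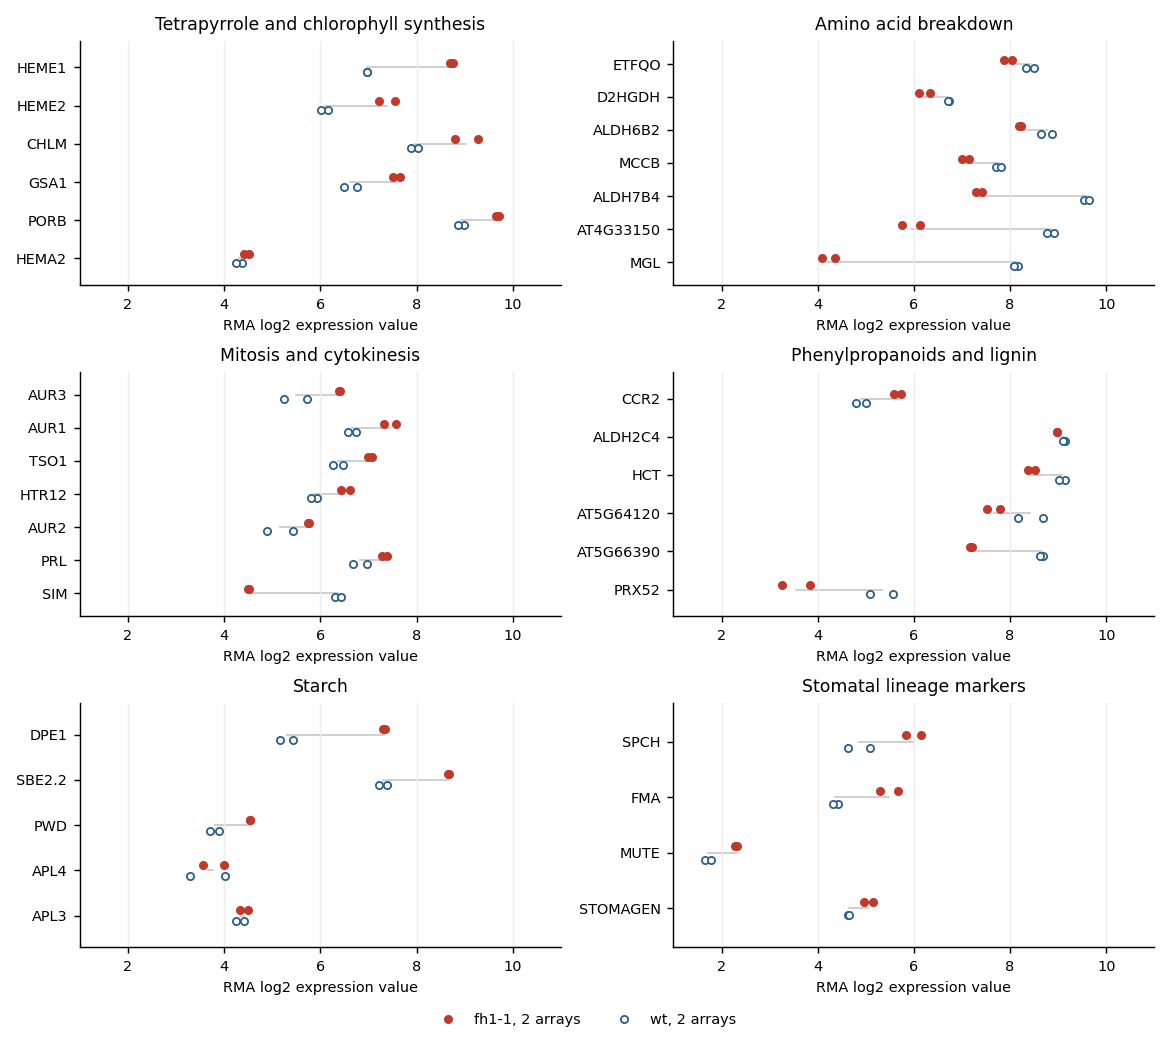
RMA log2 value (x axis) of every measured member of 6 gene lists, 1 gene a row; filled red points are the 2 fh1-1 arrays, open blue points the 2 wt arrays, and a grey line joins the group means. The red points lie well to the right of the blue in 5 of the 6 chlorophyll genes, and to the left in the amino acid breakdown genes.

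The lists of mitosis and of the stomatal lineage, the cells that give rise to stomata, were mostly higher. Of 7 measured genes of mitosis and cytokinesis, 5 were higher and 1 lower in fh1-1, with a median of 0.65. Over all genes 10.9% were higher and 11.7% lower. The Aurora kinase gene AUR3 stood at 6.39 and 6.40 in fh1-1 and 5.73 and 5.25 in wt, and AUR1 at 7.32 and 7.57 in fh1-1 and 6.57 and 6.74 in wt. TSO1, a regulator of division, rose by 0.67, HTR12, the centromeric histone, by 0.65, and PRL, a subunit of the DNA replication helicase, by 0.52. The 1 fall was in SIM, an inhibitor of cyclin-dependent kinases that halts division, at 4.50 and 4.51 in fh1-1 and 6.31 and 6.43 in wt (-1.86 ± 0.17). SIM and AUR3 were called under all 13 alternatives, while the number higher fell as low as 1. AUR1 missed the threshold without fh1-1 array 2 (adjusted p = 0.058), TSO1 without wt array 2 or either fh1-1 array (up to 0.074), HTR12 with any 1 of the 4 arrays left out (up to 0.16) and PRL in 8 alternatives (up to 0.27).

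Of the 4 measured stomatal lineage markers, 3 were higher in fh1-1, where 10.9% of all genes were higher. SPCH, which starts the lineage, stood at 6.14 and 5.84 in fh1-1 and 5.09 and 4.64 in wt. FMA, which acts at its end, stood at 5.66 and 5.29 in fh1-1 and 4.43 and 4.31 in wt. MUTE, which acts between them, was dim in both groups, at 2.32 and 2.28 in fh1-1 and 1.66 and 1.79 in wt, and its call ended with any 1 of the 4 arrays left out (adjusted p of up to 0.14). STOMAGEN, a peptide that promotes stomata, had a difference of 0.41 and was not called. The summed level of the 4, off the log scale, was 132.3 to 161.8 in fh1-1 and 73.2 to 83.61 in wt.

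Markers of other tissues are given for the few list members that were measured, and their part in the results was not tested. Over all genes 10.9% were higher and 11.7% lower. The 4 mesophyll and shoot markers had 1 higher, the leaf polarity gene YAB5, and summed to 211.4 to 259.3 in fh1-1 and 177.8 to 191.7 in wt. Of 18 genes matched to the endodermis list only GSO1 and JKD were measured. Both were lower, with a sum of 186.7 to 207.4 in fh1-1 and 377.4 to 393.3 in wt. Of the 3 phloem markers 2 were lower, and the third had a difference of 0.24 and was not called. Their sum, 485.1 to 535.2 in fh1-1 and 995.8 to 1314 in wt, was almost wholly that of SWEET11. SWEET11, which exports sucrose for phloem loading, stood at 8.88 and 9.03 in fh1-1 and 9.93 and 10.33 in wt, and OPS, an early phloem protein, fell by 1.05. Of the 3 xylem markers only GUT2, a xylan synthase gene, was called, and it was lower. GUT2 made up most of their sum, 111.6 to 112.6 in fh1-1 and 172.0 to 178.4 in wt. The median difference of the 3 was 0.08, and IRX15 and IRX15-L had differences of 0.13 and 0.08. Of the 3 root tip markers only LHW was called, lower by 0.75 and not called without fh1-1 array 1. The other 2 had differences of -0.67 and 0.44. LHW made up most of the sum, 106.6 to 112.3 in fh1-1 and 167.9 to 182.3 in wt. The 4 root hair markers had 2 higher, EXPA7 and EXPA18, with a sum of 290.9 to 305.0 in fh1-1 and 234.5 to 241.1 in wt. The 2 members not called made up most of that sum. EXPA7 and EXPA18 had means of 3.9 and 4.79 in fh1-1, and the highest group mean in the list was 7.94. EXPA7 missed the threshold with any 1 of the 4 arrays left out (adjusted p of up to 0.096), and EXPA18 without wt array 1 or fh1-1 array 2 (up to 0.085). The 11 ER-body proteins of the root had 4 lower, and summed to 8891 to 9235 in fh1-1 and 9494 to 9812 in wt. BGLU22, the beta-glucosidase with the largest of these falls, stood at 6.83 and 7.20 in fh1-1 and 7.76 and 7.98 in wt. Its call ended without wt array 2 or fh1-1 array 1 (adjusted p of up to 0.067), and none of the 4 was called under all 13 alternatives. Of the 6 pollen and flower markers 0 were called, and they summed to 21.08 to 23.58 in fh1-1 and 24.92 to 25.21 in wt, so all of them were dim.

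Trichome markers were split. TRY and TCL1, small inhibitors of trichome fate, were higher by 1.02 and 0.70, SIM was lower, and GIS was not called. The median difference of the 4 was 0.63. Their sum was 57.26 to 59.09 in fh1-1 and 96.53 to 108.0 in wt, where SIM, also in the mitosis list, made up most of it. TRY missed the threshold without wt array 1 or fh1-1 array 2 (adjusted p of up to 0.062) and TCL1 without wt array 1 or fh1-1 array 1 (up to 0.223). All 4 measured seed and embryo markers, of 34 genes matched to that list, were lower in fh1-1. Over all genes 10.9% were higher and 11.7% lower. M17, a late embryogenesis abundant protein gene, stood at 3.32 and 2.62 in fh1-1 and 4.82 and 6.19 in wt, so that its wt arrays differed by more than 1. OLEO3, an oil-body protein gene, stood at 1.70 and 1.96 in fh1-1 and 3.24 and 3.82 in wt. AtLEA4-1 and M10 fell by 1.22 and 0.94. The sum of the 4 was 19.83 to 24.27 in fh1-1 and 59.91 to 110.7 in wt, where the uneven M17 was the largest part of it. Only OLEO3 and M10 kept their calls, OLEO3 under all 13 alternatives and M10 under the 12 that tested it. M17 missed the threshold without wt array 2 or fh1-1 array 2 and over every probe set, and AtLEA4-1 without the same arrays.

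Among hormone lists, that of auxin response had 7 of 15 measured members lower and 1 higher in fh1-1, with a median of -0.42. Over all genes 11.7% were lower and 10.9% higher. The 1 rise was in GH3.9, of the GH3 family of amido synthetases, at 3.58 and 3.75 in fh1-1 and 2.01 and 1.79 in wt. IAA20, of the Aux/IAA repressor family, fell into the dim range, at 1.59 and 1.82 in fh1-1 and 3.87 and 4.35 in wt. LBD16 and LBD29, which act in lateral root formation, stood at 4.21 and 4.29 and at 4.54 and 4.65 in fh1-1, against 5.32 and 5.36 and 5.70 and 5.49 in wt. These 4 were called under all 13 alternatives, and the number lower ranged from 4 to 7. WAG2, a kinase that directs auxin efflux carriers, stood at 1.86 and 2.00 in fh1-1 and 3.57 and 3.47 in wt, and was the 1 of 4 auxin transport and synthesis genes called. Of the 3 gibberellin receptors, GID1B stood at 4.87 and 5.56 in fh1-1 and 6.69 and 6.93 in wt, GID1A fell by 0.64 and GID1C was not called. GID1A missed the threshold without wt array 1, wt array 2 or fh1-1 array 1 and over every probe set (adjusted p of up to 0.24). RR16, a cytokinin response regulator, stood at 3.71 and 3.69 in fh1-1 and 5.11 and 4.87 in wt.

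The phenylpropanoid and lignin list had 4 of 6 measured genes lower and 1 higher, with a median of -0.70, where 11.7% of all genes were lower. Of its falls, 3 were in cell wall peroxidases. AT5G66390, named PRX72 in RefSeq, stood at 7.16 and 7.21 in fh1-1 and 8.69 and 8.62 in wt, and was the 1 member called under all alternatives. PRX52 stood at 3.84 and 3.26 in fh1-1 and 5.09 and 5.56 in wt, and AT5G64120, named PRX71, fell by 0.76. HCT, an acyltransferase at the entry to lignin, fell by 0.64, and CCR2, a cinnamoyl-CoA reductase, rose by 0.76. Their highest adjusted p values over the alternatives were 0.056 for PRX52 (without wt array 2 or fh1-1 array 2), 0.16 for AT5G64120 (without wt array 1 or either fh1-1 array), 0.13 for HCT (with any 1 of the 4 arrays left out) and 0.082 for CCR2 (without wt array 2 or fh1-1 array 1). A further peroxidase gene outside the list, AT2G41480 or PRX25, fell by 1.13 ± 0.22 and missed the threshold without fh1-1 array 1 (adjusted p = 0.054). Of 8 flavonoid and anthocyanin genes 2 were higher and 0 lower. DFR, the dihydroflavonol reductase before anthocyanins, stood at 6.20 and 5.50 in fh1-1 and 2.91 and 2.74 in wt, and CHIL, a chalcone isomerase-like protein gene, at 4.40 and 4.49 in fh1-1 and 2.17 and 2.44 in wt.

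Proteases of the subtilisin and vacuolar processing families were lower where called, with 7 of 14 measured genes lower and 0 higher and a median of -0.54. Over all genes 11.7% were lower and 10.9% higher. SBT4.12 stood at 6.28 and 6.87 in fh1-1 and 9.53 and 9.24 in wt, and ATSBT5.2 at 5.70 and 6.05 in fh1-1 and 8.52 and 8.44 in wt. These subtilases were called under all 13 alternatives, over which the number lower ranged from 3 to 7. BETA-VPE, a vacuolar processing enzyme, fell by 1.03 and missed the threshold without wt array 2 (adjusted p = 0.062). Of 7 genes of the unfolded protein response, which raises chaperones in the endoplasmic reticulum, 3 were lower and 1 higher. DER1, of the pathway that removes misfolded proteins, stood at 6.80 and 6.75 in fh1-1 and 7.52 and 7.78 in wt. The transcription factor gene BZIP60 fell by 0.74 and BZIP28 by 0.46, the second at an adjusted p of 0.049 that missed the threshold in 10 alternatives, with any 1 of the 4 arrays left out among them (up to 0.201). ATERDJ3B, a co-chaperone, rose by 0.94.

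Sulfur and redox genes moved both ways. All 4 measured genes of the sulfur list were called, against 22.6% of all genes. APS3, an ATP sulfurylase, stood at 6.27 and 6.42 in fh1-1 and 4.84 and 4.84 in wt, while its paralog APS4 stood at 4.56 and 4.70 in fh1-1 and 5.59 and 5.77 in wt. The paralogs thus changed in opposite directions. SIR, the sulfite reductase, rose by 0.71, a call that ended without wt array 2 or either fh1-1 array (adjusted p of up to 0.12), and BGLU28 fell by 1.30. Of 23 oxidative stress and glutathione transferase genes 5 were higher and 4 lower. MSRB6, a methionine sulfoxide reductase, stood at 6.32 and 6.21 in fh1-1 and 3.03 and 2.95 in wt, and TAPX, the thylakoid ascorbate peroxidase, at 8.94 and 8.89 in fh1-1 and 6.86 and 7.08 in wt. The glutathione transferases GSTL3 and GSTU18 rose by 1.86 and 1.83. MSRB9, MSRB4 and GSTF3 fell by 0.71, 0.80 and 0.95. MSRB9 missed the threshold without wt array 1 or fh1-1 array 1 (adjusted p of up to 0.141), MSRB4 without either wt array or fh1-1 array 2 (up to 0.162), and GSTF3 without fh1-1 array 2 (0.056). Among 12 calcium, touch and elicitor genes, 3 were higher and 1 lower. CML38, a calmodulin-like protein gene, stood at 6.02 and 6.44 in fh1-1 and 3.45 and 3.35 in wt. The ubiquitin ligase genes PUB23 and PUB24, which act together on immune signalling, changed in opposite directions, by 0.96 ± 0.16 and -1.71 ± 0.19.

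Of 11 measured formins 2 were higher and 1 lower in fh1-1 (27.3%, against 22.6% of all genes), with a median of 0.06. AT2G43800 stood at 5.56 and 5.12 in fh1-1 and 4.44 and 3.86 in wt, AT5G48360 at 4.70 and 4.95 in fh1-1 and 4.08 and 3.58 in wt, and AT2G25050 at 5.11 and 5.03 in fh1-1 and 5.52 and 5.91 in wt. Only AT2G43800 (adjusted p = 0.0043) was called under all 13 alternatives. The other 8 had differences of -0.36 to 0.32 and were not called. AT5G07650 was the least even of them, at 4.56 and 5.44 in fh1-1 and 5.28 and 5.36 in wt. AT5G48360 and AT2G25050 missed the threshold without wt array 2 or either fh1-1 array (adjusted p of up to 0.145 for the first and 0.149 for the second).

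Of 8 actin-binding protein genes 3 were higher and 2 lower (62.5%, against 22.6% of all genes). NET3C, which links actin to contact sites of the endoplasmic reticulum and plasma membrane, stood at 4.15 and 4.16 in fh1-1 and 2.74 and 2.96 in wt. WLIM2a and WLIM2b, LIM-domain proteins that bundle actin filaments, changed in opposite directions. WLIM2a stood at 9.70 and 9.69 in fh1-1 and 8.76 and 8.60 in wt, and WLIM2b at 7.43 and 7.55 in fh1-1 and 8.32 and 8.40 in wt. The further LIM gene PLIM2b fell by 0.81. None of the 5 measured genes of the ARP2/3 and SCAR complexes, which start branched actin, and neither of the 2 measured actins was called. Among 6 myosins only VIIIB was called, higher by 0.64, and it missed the threshold without wt array 2 or either fh1-1 array (adjusted p of up to 0.188). Of 9 genes of the exocyst and its relatives, which tether vesicles at the plasma membrane, SEC10 and EXO84B fell by 0.65 and 0.50. SEC10 missed the threshold without wt array 1 or fh1-1 array 2 (adjusted p of up to 0.119), and EXO84B with any 1 of the 4 arrays left out (up to 0.204).

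**Figure D4:**
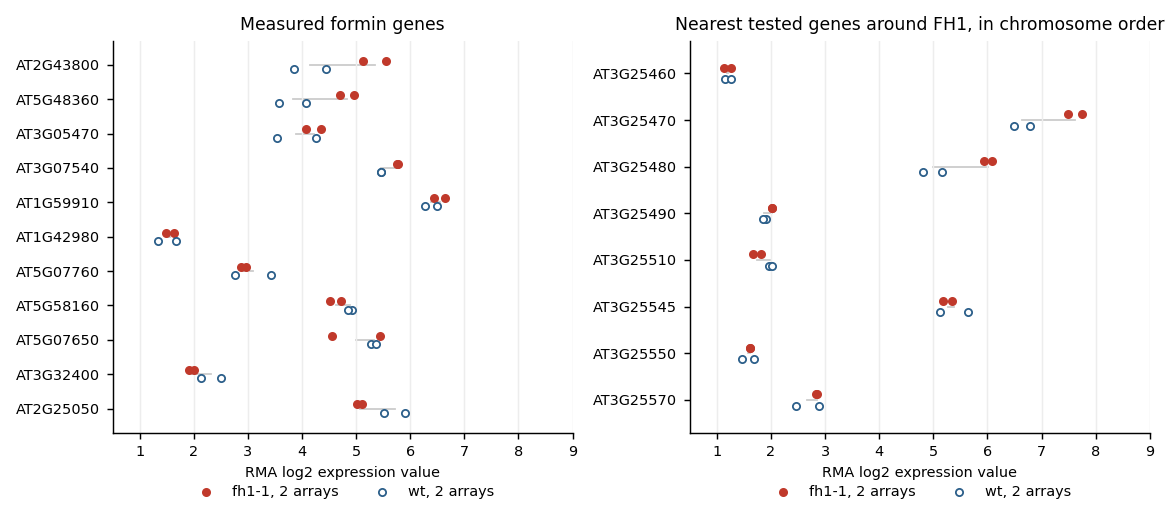
RMA log2 value (x axis) of the 11 measured formin genes (left) and of the 4 nearest tested genes on each side of FH1 in chromosome order (right), 1 gene a row; filled red points are the 2 fh1-1 arrays, open blue points the 2 wt arrays, and a grey line joins the group means. Formin rows lie close together except AT2G43800, AT5G48360 and AT2G25050, and of the 8 neighbours AT3G25470 and AT3G25480 lie apart.

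Around the FH1 locus, 2 of the 8 nearest tested genes were called. AT3G25470 stood at 7.74 and 7.48 in fh1-1 and 6.79 and 6.48 in wt (0.97 ± 0.17, adjusted p = 0.0026). AT3G25480 beside it stood at 5.95 and 6.09 in fh1-1 and 4.81 and 5.16 in wt (1.03 ± 0.18, adjusted p = 0.0027). Both lie on the same side of FH1 with AT3G25490, which was dim and not called, between them and FH1 among the genes tested. Both were called under all 13 alternatives. Of the 100 nearest tested genes, 50 on each side, 10 were higher and 10 lower (20.0%), against 22.6% of all genes.

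Across the genome, 23.6% of called rises had a tested neighbour called higher, against 20.6% of all genes, and 25.3% of called falls had a neighbour called lower, against 21.9%. The longest runs of neighbouring tested genes called in 1 direction held 5 genes. One on chromosome 4, from the tetraspanin gene TET5 to AT4G23470, was lower throughout. AT4G23470 stood at 7.35 and 7.69 in fh1-1 and 8.93 and 9.03 in wt, and TET5 fell by 1.13. Another on chromosome 5, from AT5G64401 to AT5G64450, included FAAH, a fatty acid amide hydrolase gene that fell by 0.61, a call that ended without wt array 2 or either fh1-1 array (adjusted p of up to 0.078). A run of 4 higher genes on chromosome 3, from AT3G47050 to AT3G47090, held AT3G47070, at 6.93 and 6.74 in fh1-1 and 4.36 and 4.08 in wt. Each run was broken when some single arrays were left out: AT4G23420, AT4G23440 and AT4G23460 missed the threshold without wt array 1 or fh1-1 array 1 (adjusted p of up to 0.151), AT5G64420 and AT3G47050 with any 1 of the 4 arrays left out (up to 0.283), and AT3G47080 without wt array 1 or either fh1-1 array (up to 0.205). AT5G64430 missed it without wt array 2 or fh1-1 array 2, and AT5G64450 without wt array 1 or either fh1-1 array (up to 0.114).

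Some genes named by locus code on the array carry a name in RefSeq. Of 135 such genes 20 were higher and 16 lower in fh1-1 (26.7%), against 22.6% of all genes, and 14 of these changed at least 2-fold. Over the alternatives 14 to 21 were higher and 8 to 21 lower, and 12 of the 36 called were called in all 13. Thylakoid genes led the rises. AT4G01150, or CURT1A, which bends thylakoid membranes, stood at 9.78 and 9.75 in fh1-1 and 7.29 and 7.13 in wt, and its relative AT1G52220, or CURT1C, at 7.29 and 7.13 in fh1-1 and 4.61 and 4.81 in wt. AT5G58330, the NADP-dependent malate dehydrogenase that exports reducing power from chloroplasts, stood at 9.85 and 9.74 in fh1-1 and 7.22 and 7.76 in wt. Outside the chloroplast, AT5G48570, or ROF2, a heat-induced immunophilin, stood at 5.55 and 5.48 in fh1-1 and 3.30 and 3.37 in wt. AT5G61590, or DEWAX, a repressor of wax synthesis, stood at 7.73 and 7.67 in fh1-1 and 5.94 and 5.61 in wt. The coilin gene AT1G13030, of nuclear Cajal bodies, stood at 6.30 and 6.38 in fh1-1 and 5.50 and 4.44 in wt, with wt arrays more than 1 apart.

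The largest falls among them, after AT4G33150, were in a receptor kinase and a transporter. AT4G28650, or PXL2, stood at 4.38 and 4.24 in fh1-1 and 5.89 and 6.11 in wt (-1.69 ± 0.15). AT1G72120, or NPF5.14, of the NRT1/PTR transporter family, stood at 5.86 and 5.75 in fh1-1 and 7.23 and 7.37 in wt (-1.49 ± 0.14). Another transporter of that family, AT1G68570 or NPF3.1, rose by 1.17 from its brightest probe set, and missed the threshold with the mean of its probe sets (0.41, adjusted p = 0.12). Except for AT4G33150 and AT4G01150, the genes of this and the preceding paragraph were chosen after their values were seen.

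Symbol families gave further groups. Of 16 genes of the PRA1 family, prenylated Rab acceptors of the membrane traffic system, 7 were lower and 0 higher in fh1-1. This was 43.8% called, against 22.6% of all genes, with a median of -0.45. PRA8 stood at 4.17 and 4.27 in fh1-1 and 6.09 and 6.20 in wt, PRA1.B6 at 6.20 and 6.07 in fh1-1 and 7.49 and 7.61 in wt, and PRA7 at 5.97 and 5.74 in fh1-1 and 6.98 and 7.01 in wt. These 3 were called under all 13 alternatives, with 3 to 7 family members lower. Of 51 UDP-glycosyltransferase genes (UGT), which attach sugars to small molecules, 5 were higher and 14 lower (37.3%), with a median of -0.23. UGT73C6 stood at 4.55 and 4.67 in fh1-1 and 2.65 and 2.87 in wt, and UGT76B1 at 6.34 and 6.50 in fh1-1 and 7.74 and 7.64 in wt. The number of UGT genes lower was 9, 8, 4 and 6 without wt array 1, wt array 2, fh1-1 array 1 and fh1-1 array 2. Both families were picked after their counts were seen, among 37 symbol stems with at least 8 measured genes, and other stems, such as BGLU with 6 higher and 5 lower of 22, had larger called shares.

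**Figure D5:**
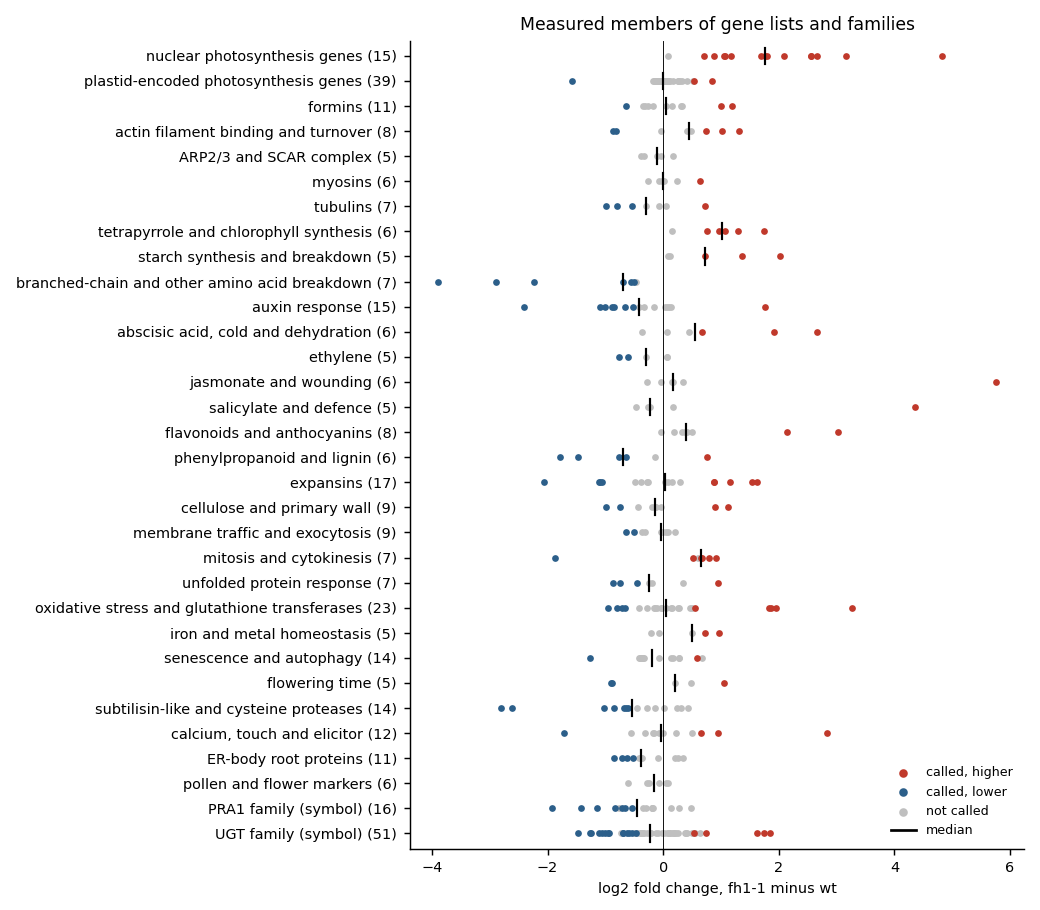
Difference between fh1-1 and wt (log2, x axis) of every measured member of the lists with at least 5 measured genes, the nuclear and plastid-encoded photosynthesis genes and both symbol families, 1 row each with the number measured in brackets; red points were called higher, blue points called lower, grey points not called, and the black bar is the median. Nuclear photosynthesis genes lie to the right and plastid-encoded ones around 0, and the amino acid breakdown, protease and PRA1 rows have calls only to the left.

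Of 17 expansins, which loosen cell walls, 5 were higher and 4 lower, and of 9 cellulose and primary wall genes 2 were higher and 2 lower. Over all genes 10.9% were higher and 11.7% lower. Among the wall genes only XTH19 kept its call in every alternative that tested it, 12 of the 13. The fit without the dimmest genes left it out. Over the 13 alternatives 0 to 2 wall genes were higher and 1 to 2 lower. Of 7 tubulins, 1 was higher and 3 lower. None of these 4 held under all alternatives: TUB5 missed the threshold without wt array 2 or either fh1-1 array (adjusted p of up to 0.12), TUB1 without wt array 1 or fh1-1 array 1 (up to 0.083), TUB9 without fh1-1 array 2 (0.055) and TUB6 with any 1 of the 4 arrays left out (up to 0.16). Of 5 iron and metal genes 2 were higher, the metallothionein gene MT1C and the iron-response factor gene BHLH101. Both missed the threshold without wt array 1, wt array 2 or fh1-1 array 2 (adjusted p of up to 0.176). Of 5 flowering-time genes, SNZ stood at 4.97 and 4.66 in fh1-1 and 3.60 and 3.90 in wt, while its relative SMZ and the RNA-binding FPA fell by 0.88 and 0.91. Of 14 senescence and autophagy genes the autophagy genes ATG8E and ATG8B changed by 0.59 ± 0.15 and -1.26 ± 0.29, the first called with none of the single arrays left out (adjusted p of up to 0.157) and the second not without wt array 2 or fh1-1 array 2 (up to 0.091). The glucosinolate transporters GTR1 and GTR2 changed by 0.79 ± 0.14 and -0.53 ± 0.16, and GTR2 missed the threshold in 6 alternatives, among them without wt array 1, wt array 2 or fh1-1 array 1 (adjusted p of up to 0.289). COR27, a cold- and clock-regulated gene, stood at 4.18 and 4.08 in fh1-1 and 6.18 and 6.17 in wt, and the clock gene GI was not called. The jasmonate list held only THI2.2 and the defence list only ECS1 as calls, of 6 and 5 measured genes. The ABA, cold and dehydration list had 3 of 6 higher, with the cold-induced KIN2 at 8.58 and 8.31 in fh1-1 and 6.74 and 6.30 in wt. COR47, a dehydrin gene and the weakest of the 3, missed the threshold in 8 alternatives, among them without wt array 2 or either fh1-1 array (adjusted p of up to 0.316).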

How the data were processed

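Total RNA of whole seedlings was labelled, hybridised and scanned on Affymetrix arrays by NASC, per the labels' protocols. The authors deposited log2 expression values, made by RMA in Affymetrix Expression Console 1.4, with Transcriptome Analysis Console 3.1 also named, per the submitters' processing notes. RMA corrects background, normalizes arrays together and summarises probe sets, so the values rest on all 8 arrays. The raw array files were not used here, and the number of arrays limits the precision.

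Of 38408 probe sets, 16746 were paired with exactly 1 gene in the annotation given, which names no build. These stood for 16554 genes, 163 of which had several probe sets and were read from the brightest. The 758 probe sets paired with several genes and the 20904 not listed were left out. Of the genes, 16418 matched the RefSeq annotation of assembly TAIR10.1, used for names and gene order only. No sequence was used here.

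Groups were taken from the array titles. limma 3.58.1 in R 4.3.3 fitted a group-means model to all 8 arrays (4 residual and 5.81 prior degrees of freedom), with p values adjusted by Benjamini-Hochberg over every gene and called under 0.05. Tables were made with pandas 2.3.3 and figures with matplotlib 3.10.9 in Python 3.11.15. The steps were tested on simulated data. Gene lists (62, of 2463 names) were described by counts and medians, with no list test. They held 325 measured genes, and 28 lists had at least 5. Most listed genes were thus not measured, and the counts cover measured members only. The members and lists were chosen with earlier results of these data known.

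The genes named were the 15 largest rises and 15 largest falls among called genes with arrays of the groups apart, the 8 largest each way among those with a locus code only, and the 5 brightest rises and falls of at least 2-fold. Named too were up to 4 called members with the largest change in each list with at least 2 calls, the 4 nearest tested genes on each side of FH1, the members of the 3 longest runs of neighbours called one way, every measured formin, and genes whose probe sets were called in opposite directions. Other list members, plastid genes and family members were chosen after their values were seen.

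The alternatives were each of the 4 arrays left out, the fit without the liquid arrays, a replicate block by repeat number, quantile normalization, cyclic loess, the average over probe sets of a gene, a robust prior with an intensity trend, a test of every probe set, and a test without the dimmest genes (11036 kept). A fit without the 2 SMIFH2 arrays was chosen after seeing the data. Repeat numbers did not pair the arrays: nothing in the labels ties them, and the deviations of repeat 1 from the group means correlated at r = 0.0142 over genes.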

Additional observations from a re-analysis of the deposited data

Results flagged for a closer look

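A signal was present in data outside the gene comparison. Over every probe set of the table, 3471 of the 21662 probe sets that were not paired with exactly 1 gene passed limma's test at an adjusted p under 0.05, 1810 of them higher and 1661 lower in fh1-1. This share (16.0%) was close to that of every probe set (16.2%) and of the probe sets paired with exactly 1 gene (16.3%). They carry no single gene name here, so none of them entered the lists. No group had 4 or more arrays, so single arrays were not tested for standing apart.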

How the results depend on the processing

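Between 2056 and 2955 genes were called when 1 of the 4 arrays was left out, against 3734: 2324 without wt array 2, 2056 without fh1-1 array 1, 2297 without fh1-1 array 2 and 2955 without wt array 1. The lone array that such a fit leaves is taken to have the spread of the other groups. The share of called genes that were higher was 50.6% to 55.4% in these fits, against 48.2%, with 55.4% without fh1-1 array 1, and 51.9% with cyclic loess, so neither direction prevailed throughout. In the other alternatives 2707 (every probe set) to 4079 (trended robust prior) genes were called, and 1349 to 1620 genes at least 2-fold over all alternatives. With the repeat number as a replicate block 3543 genes were called, and no pairing of the repeats was shown. Without the 2 SMIFH2 arrays 3469 were called. No called gene was called in the opposite direction under any of the 13 alternatives. Of the 182 genes named by the rule 168 were called, and 112 of these were called under every alternative that tested them. None of the 182 reversed a call. Omission of the dimmest genes moved the medians of the ABA list to 1.29, of flavonoids to 2.14, of ethylene to -0.69, of expansins to -0.28 and of flowering time to -0.34. Genes near the 25th percentile of the arrays have little signal over background, which limits what can be called there.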

Other observations

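Of the 163 genes with several probe sets, 51 had at least 1 probe set called over every probe set, and in 12 of these all probe sets were called in 1 direction. In 1 gene, AT4G37550, they were called in opposite directions: the brighter probe set changed by 1.23 ± 0.22 (adjusted p = 0.011) and the dimmer by -0.71 ± 0.13 (adjusted p = 0.012). The value used for this gene was that of the brighter, at 6.25 and 6.20 in fh1-1 and 5.12 and 4.87 in wt.

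The genes with a symbol include a family that is dim in whole seedlings. The 64 LCR genes, small cysteine-rich peptides, had a median level of 1.63 with 0 higher and 2 lower in fh1-1. This was 3.12% called, against 22.6% of all genes and 1.27% of the dimmest of the 5 level classes.

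Called genes with arrays of 1 group more than 1 apart numbered 4 for the fh1-1 arrays and 26 for the wt arrays. The median gap between arrays over all genes was 0.15 in fh1-1 and 0.184 in wt. At an unadjusted p under 0.05, 5472 genes passed.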
